A study of Mus musculus with 14 samples.

Results

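From the 55487 genes in the count tables, 9 G protein-coupled receptors of leukocyte migration were followed in 14 RNA-seq libraries of mouse bone marrow. They are the formyl peptide receptors Fpr1 and Fpr2, the CC chemokine receptors Ccr1 and Ccr2, the chemokine receptor-like Ccrl2, the fractalkine receptor Cx3cr1, the CXCL12 receptor Cxcr4, the complement C5a receptor C5ar1 and the platelet-activating factor receptor Ptafr. The set was chosen by name with earlier results of these libraries known, among them the levels of Fpr1 and Fpr2 in stromal cultures with and without IL-1β, and which further values entered the choice is not recorded. Values in the stromal cultures are therefore given here as a description without a test of single receptors, and the p-values in the other populations are not independent evidence for a set chosen in this way.

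LSK (Lin-Sca1+c-kit+) cells, the stem cell-enriched fraction, and LK (Lin-c-kit+) cells, the myeloid progenitor fraction, were lineage depleted and sorted from C57BL/6 bone marrow carrying a heterozygous Jak2V617F allele. Per the study's methods this allele is switched on by Mx1Cre, an interferon-inducible and not cell type-restricted Cre, and the marrow was studied in lethally irradiated C57BL/6 recipients. The mice received PBS (3 libraries in each population) or IL-1β at 0.5 µg per dose (2 libraries in each) by intraperitoneal injection, 3 doses per week for 16 weeks. All LSK and LK groups carry the Jak2V617F allele, so none of them is a wild-type control. Mesenchymal stromal cells (MSC) were grown for 21 days from the marrow of C57BL/6 mice without that allele and were kept with PBS (2 libraries, numbered 2 and 3) or IL-1β at 5 ng/ml (2 libraries) for 72 h. The comparisons ask how the inflammatory cytokine IL-1β changes these transcripts in mutant progenitors and in stroma.

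Chemoattractant receptors span the membrane and mostly signal through Gi proteins, which release Gβγ, activate phospholipase C and phosphoinositide 3-kinase γ, and set Rac-driven movement going. Formyl peptide receptors sense N-formylated peptides that bacteria and damaged mitochondria release, and C5ar1 and Ptafr sense a complement fragment and a lipid. Cxcr4 holds stem and progenitor cells in the marrow, Ccr2 brings monocytes out of it, and neutrophils and macrophages are known for high levels of Fpr1, Fpr2, Ccr1 and C5ar1.

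The genes lie on 5 chromosomes of the mouse genome build GRCm38, and each value is the sum over all exons of the gene. Fpr1 (ENSMUSG00000045551, chr17:17876471-17883940, minus strand) and Fpr2 (ENSMUSG00000052270, chr17:17887824-17893952, plus strand) are neighbours that point away from each other, with starts 3884 bases apart. On chromosome 9 lie Ccr1 (ENSMUSG00000025804, chr9:123962124-123968692, minus strand), Ccr2 (ENSMUSG00000049103, chr9:124101950-124113557, plus strand), Ccrl2 (ENSMUSG00000043953, chr9:111054486-111057519, minus strand) and Cx3cr1 (ENSMUSG00000052336, chr9:119901616-120069879, minus strand). The starts of Ccr1 and Ccr2 are 133258 bases apart. Cxcr4 (ENSMUSG00000045382) is at chr1:128588199-128592293 on the minus strand, C5ar1 (ENSMUSG00000049130) at chr7:16246743-16259540 on the minus strand, and Ptafr (ENSMUSG00000056529) at chr4:132564067-132582683 on the plus strand. Fpr2 shares 48 of its 1296 exon bases with Fpr3 on the same strand, and Fpr3 had no count in any library. Cx3cr1 overlaps Gm33858 on the opposite strand, and the counting used strand.

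Promoter windows from 250 bases before to 50 bases after the start were taken from RefSeq (GRCm38.p6), where all 9 receptors matched. Those of Fpr1, Fpr2 and Ccr1 are shown because these receptors were much higher with IL-1β in the stromal cultures, those of Ccrl2 and C5ar1 because they hold a motif searched for. Capitals mark the match, which is the NF-κB consensus in Ccr1 and Ccrl2 and the letters of the core AGGAAGT, read on the other strand, in C5ar1. Each sequence is written 5′ to 3′ on the strand of its gene.
Fpr1 (chr17:17883890-17884189, minus strand): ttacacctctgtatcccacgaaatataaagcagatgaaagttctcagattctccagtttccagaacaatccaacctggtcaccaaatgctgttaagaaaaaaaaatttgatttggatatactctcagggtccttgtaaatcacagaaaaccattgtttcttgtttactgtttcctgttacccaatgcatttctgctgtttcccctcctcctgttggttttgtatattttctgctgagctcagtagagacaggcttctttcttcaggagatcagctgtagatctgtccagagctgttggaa
Fpr2 (chr17:17887574-17887873, plus strand): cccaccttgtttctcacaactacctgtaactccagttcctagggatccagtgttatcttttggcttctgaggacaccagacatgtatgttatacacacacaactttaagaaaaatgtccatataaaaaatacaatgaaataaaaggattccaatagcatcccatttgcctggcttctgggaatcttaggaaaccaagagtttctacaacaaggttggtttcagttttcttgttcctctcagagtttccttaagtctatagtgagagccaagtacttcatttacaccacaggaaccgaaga
Ccr1 (chr9:123968643-123968942, minus strand): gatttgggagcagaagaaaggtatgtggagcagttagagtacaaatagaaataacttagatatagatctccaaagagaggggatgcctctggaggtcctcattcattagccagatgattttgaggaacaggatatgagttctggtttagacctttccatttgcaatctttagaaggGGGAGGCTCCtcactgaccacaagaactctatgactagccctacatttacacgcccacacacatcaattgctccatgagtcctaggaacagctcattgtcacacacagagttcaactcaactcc
Ccrl2 (chr9:111057469-111057768, minus strand): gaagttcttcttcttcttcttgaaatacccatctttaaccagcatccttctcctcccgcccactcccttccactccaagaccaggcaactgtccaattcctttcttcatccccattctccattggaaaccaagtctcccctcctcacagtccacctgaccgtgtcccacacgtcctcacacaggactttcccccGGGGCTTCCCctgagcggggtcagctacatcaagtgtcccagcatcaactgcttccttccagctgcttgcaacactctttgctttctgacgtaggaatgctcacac
C5ar1 (chr7:16259289-16259588, minus strand): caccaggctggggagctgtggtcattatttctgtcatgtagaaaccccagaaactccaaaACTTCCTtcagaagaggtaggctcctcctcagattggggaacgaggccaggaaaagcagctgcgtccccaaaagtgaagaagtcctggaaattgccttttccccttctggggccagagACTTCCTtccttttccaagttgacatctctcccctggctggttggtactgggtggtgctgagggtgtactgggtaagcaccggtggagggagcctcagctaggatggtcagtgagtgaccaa

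Searched on both strands, the NF-κB consensus was found 74 bases before the start of Ccr1 and 56 bases before that of the first of 3 Ccrl2 windows. It is present in 8.46% of the 32851 promoter windows of this length in the table. The letters AGGAAGT, a core that ETS-family factors such as PU.1 bind, were found in C5ar1 at 190 and at 72 bases before the start and occur in 9.35% of windows. The letters TGANTCA, which AP-1 binds, were in none of the receptor windows and in 7.81% of all. None of the 3 motifs was found in the windows of Fpr1, Fpr2, Ccr2, Cx3cr1, Cxcr4 or Ptafr. A match is a description of letters only. No motif overlapped another in these windows.

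Counted read pairs per library ranged from 12172400 to 16271408 in LSK with PBS and from 12804883 to 18544346 in LK with PBS. With IL-1β they ranged from 4393233 to 8641124 in LSK and LK, so that each IL-1β library of sorted cells was shallower than each PBS library. The PBS cultures of MSC had 5834909 and 13155033 counted read pairs, the IL-1β cultures 11681794 and 30871055. LSK PBS replicate 2 stood apart from the other LSK PBS libraries. It differed over 2-fold from replicate 1 at 4083 genes and from replicate 3 at 4088 genes, against 1513 genes between replicates 1 and 3, and its summed lymphoid markers were 358 CPM against 117 and 102. Receptor values in LSK are therefore also given without it.

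Marker lists checked the labels. Summed over 15 monocyte and macrophage markers, the MSC cultures reached 16111 and 14374 CPM (counts relative to the effective library size, set within the population) with PBS and 21200 and 21519 CPM with IL-1β. Each of the markers had counts in both treatments, although single libraries were at 0 for some. Ly6c2 had only 2 counts over the PBS and 5 over the IL-1β cultures. The 12 mesenchymal markers summed to 5534 and 3053 CPM with PBS and to 5595 and 6007 CPM with IL-1β, and Lepr, the leptin receptor that marks marrow stroma, was at 0 with PBS. In cultures labelled MSC the macrophage list thus exceeded the mesenchymal list in each of the 4 libraries, and the labels, whose lineage depletion and sort are written in one text for all samples, name no step that separated cell types within the cultures. Neutrophil markers summed to only 3.39 to 18.7 CPM there, with S100a9, Ngp, Ly6g and Retnlg at 0. In the sorted cells, stem and progenitor markers summed to 1431 to 1858 CPM in LSK and 454 to 622 CPM in LK with PBS. The neutrophil list, with 11 of its 12 genes detected and Ly6g at 0, went from between 2205 and 3184 CPM to 9920 and 11609 CPM with IL-1β in LSK. In LK it went from between 4417 and 9570 CPM to 18128 and 21189 CPM. In bulk libraries, fewer cells of a type and less RNA per cell cannot be told apart.

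**Figure D1:**
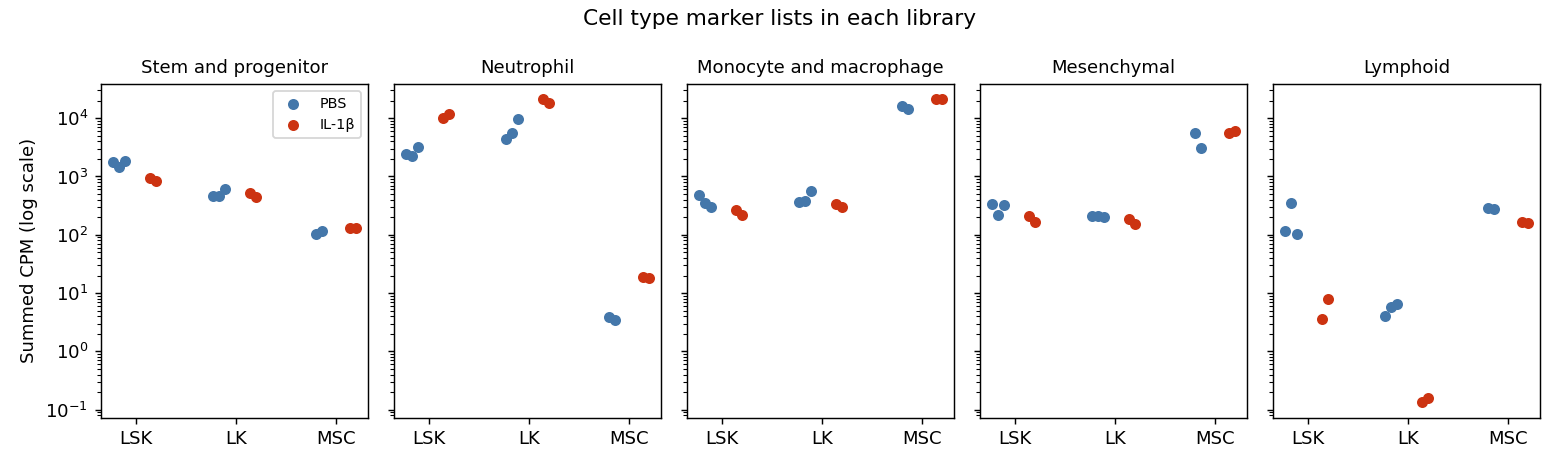
Summed CPM of the 5 marker lists (log axis) in each library of LSK, LK and MSC, with PBS in blue and IL-1β in red, 1 point per library. In MSC the monocyte and macrophage sums (14374 to 21519 CPM) lie above the mesenchymal sums (3053 to 6007 CPM), and in LSK and LK the neutrophil sums with IL-1β lie above those with PBS.

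The receptors were not evenly spread over the populations. Levels per kilobase of exon, on a scale set over all 14 libraries, put 8 of the 9 receptors highest in the MSC cultures, and Ccr2 alone highest in LSK cells. Cultured wild-type cells and sorted Jak2V617F cells differ in source and preparation, so these levels are a description without a test.

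In the MSC cultures with PBS the complement receptor C5ar1 led, at 169 ± 11.2 CPM per kb (SD, n = 2). The chemokine receptor Cxcr4 followed at 106 ± 8.32 CPM per kb and Ptafr at 70.6 ± 4.50 CPM per kb. With IL-1β the order changed, with Cxcr4 at 214 ± 12.6, C5ar1 at 156 ± 0.400 and Ccr1 at 93.1 ± 13.99 CPM per kb. Cxcr4 was the leading receptor in the sorted cells of either treatment, with 35.7 ± 5.21 CPM per kb in LSK with IL-1β, 49.8 ± 9.11 in LK with PBS, 61.1 ± 15.02 in LSK with PBS and 66.2 ± 16.3 in LK with IL-1β. The 3 highest of these 4 groups overlapped with their neighbours in the order. LSK with IL-1β lay below all of them without overlap.

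Ccr2, the receptor for CCL2 that marks monocytes and their precursors, was the receptor with lower levels in MSC than in sorted cells. Its levels were 6.89 ± 0.968 CPM per kb in LSK with IL-1β, 4.66 ± 1.27 in LK with PBS, 3.67 ± 1.45 in LSK with PBS and 3.57 ± 0.987 in LK with IL-1β. In MSC it was at 0.492 ± 0.241 CPM per kb with PBS and 0.284 ± 0.00439 with IL-1β. The 3 lower groups of sorted cells overlapped, and each MSC group lay below them.

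Cx3cr1 was at 14.96 ± 3.86 CPM per kb in MSC with PBS and 14.7 ± 1.24 with IL-1β, which overlapped. LK cells with PBS followed at 2.74 ± 0.507 CPM per kb, LSK with PBS at 1.43 ± 1.13, LK with IL-1β at 1.18 ± 0.101 and LSK with IL-1β at 0.891 ± 0.356, and each of these 4 overlapped with its neighbour in the order. Ccrl2, which binds chemerin but does not signal by itself, was at 9.19 ± 0.397 and 7.03 ± 0.149 CPM per kb in MSC with IL-1β and with PBS, and at 2.87 ± 0.724 in LSK with PBS. The other 3 groups, from 0.900 ± 0.0575 to 1.27 ± 0.469 CPM per kb, overlapped. C5ar1 and Ptafr had under 1 CPM per kb in each sorted group on average, C5ar1 from 0.113 ± 0.117 to 0.472 ± 0.340 and Ptafr from 0.145 ± 0.0320 to 0.924 ± 0.666.

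**Figure D2:**
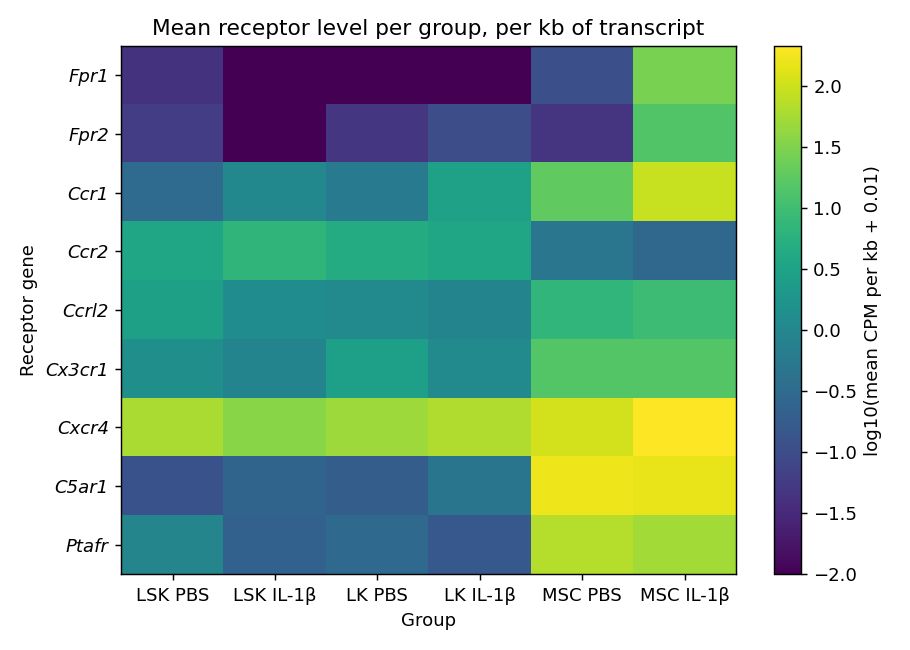
Mean level of the 9 receptors in the 6 groups, as log10 of CPM per kb of exon plus 0.01 (colour), scaled over all 14 libraries. Cxcr4 is the brightest receptor in LSK and LK, C5ar1 in MSC with PBS, and Ccr2 is brighter in LSK and LK than in MSC.

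The formyl peptide receptors were almost silent in sorted cells. Fpr1 had 2 counts in LSK PBS replicate 1 and none in the other 9 LSK and LK libraries. Fpr2 had 3 counts in LSK PBS replicate 1, 1 count each in LK PBS replicates 1 and 3, and 2 counts in LK IL-1β replicate 1. Summed over the libraries of a group, a count of 0 allows up to 0.245 CPM in LSK with IL-1β, and for Fpr1 up to 0.0652 CPM in LK with PBS and 0.218 CPM in LK with IL-1β, taking 3 counts as the limit. Neither receptor had enough counts for a test in LSK or LK, and a difference between treatments was not detectable at this depth.

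In the MSC cultures both formyl peptide receptors were far higher with IL-1β. Fpr1, the high-affinity receptor, had 0 and 3 counts with PBS against 965 and 333 counts with IL-1β. On the CPM scale these are 0 and 0.226 against 31.6 and 29.4. The ratio of summed counts, corrected for depth, was 199 with a 95% counting interval of 68.1 to 968. Fpr2, which binds a wider range of peptides and serum amyloid A, had 0 and 1 count with PBS and 405 and 194 counts with IL-1β, or 0 and 0.0753 CPM against 13.3 and 17.1 CPM. Its ratio was 276, with an interval of 49.4 to 10921. Both intervals cover counting error only. The groups did not overlap, and both PBS libraries were at or near 0 although the deeper of them held 13155033 counted read pairs.

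Ccr1, which binds CCL3, CCL5, CCL6 and CCL9, had 34.7 and 53.0 CPM with PBS and 231 and 197 CPM with IL-1β. The groups lay apart, with a 4.82-fold higher level with IL-1β (log2 fold change 2.27 ± 0.22, SE). For Cxcr4 the PBS cultures had 171 and 149 CPM and the IL-1β cultures 319 and 310 CPM, a 1.96-fold higher level (log2 fold change 0.97 ± 0.11). Both IL-1β cultures were above both PBS cultures.

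The other 5 receptors had log2 fold changes from -0.87 to 0.35 in MSC with all libraries. Ccrl2 was at 15.7 and 14.8 CPM with PBS and at 18.4 and 20.6 CPM with IL-1β (log2 fold change 0.35 ± 0.15). Ptafr was at 227 and 202 CPM with PBS against 156 and 159 CPM with IL-1β, 1.36-fold lower (log2 fold change -0.44 ± 0.11). The IL-1β cultures lay below the PBS cultures for Ptafr and above them for Ccrl2. C5ar1 was abundant with PBS (349 and 374 CPM) and with IL-1β (318 and 336 CPM), and the IL-1β cultures were slightly below the PBS cultures (log2 fold change -0.15 ± 0.11). Cx3cr1 was at 67.4 and 45.4 CPM with PBS and at 55.6 and 52.0 CPM with IL-1β, and the groups overlapped. Ccr2 was low, at 1.83 and 3.69 CPM with PBS and 1.54 and 1.59 CPM with IL-1β (log2 fold change -0.87 ± 0.45), with -1.23 without PBS replicate 2 and -0.23 without PBS replicate 3.

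A gene is called here where the quasi-likelihood test of edgeR, Benjamini-Hochberg adjusted over all genes, gives p under 0.05 and its log2 fold change exceeds 0.5 in either direction. In MSC 11.4% of the 13239 genes tested were called, 7.14% higher and 4.31% lower. All 9 receptors passed the filter on low counts. Of them 4 were among the genes called higher and 0 among those called lower, and 5 receptors lay higher and 3 lower without overlap, where 31.3% and 29.8% of all genes did, counts that the choice of the receptors bears on and from which nothing is read. Macrophage markers moved as well, with 8 of the 14 tested called higher, 0 lower and a median log2 fold change of 1.11. Among them the F4/80 gene Adgre1 went from 710 ± 79.5 to 1778 ± 41.4 CPM (SD, n = 2 each) and C1qa from 1235 ± 37.3 to 1964 ± 26.5 CPM. Of the 14, 13 had a log2 fold change above 0, and Cd68 went the other way, from 1305 ± 304 to 939 ± 101 CPM (-0.47 ± 0.19, SE, not called). The 11 mesenchymal markers tested had a median log2 fold change of 0.14, with 7 above 0 and 0 called. They reached 0.98 ± 0.35 for Col1a1 and 2.04 ± 0.53 for Col3a1. The part of these marker shifts in the receptor values was not tested.

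**Figure D3:**
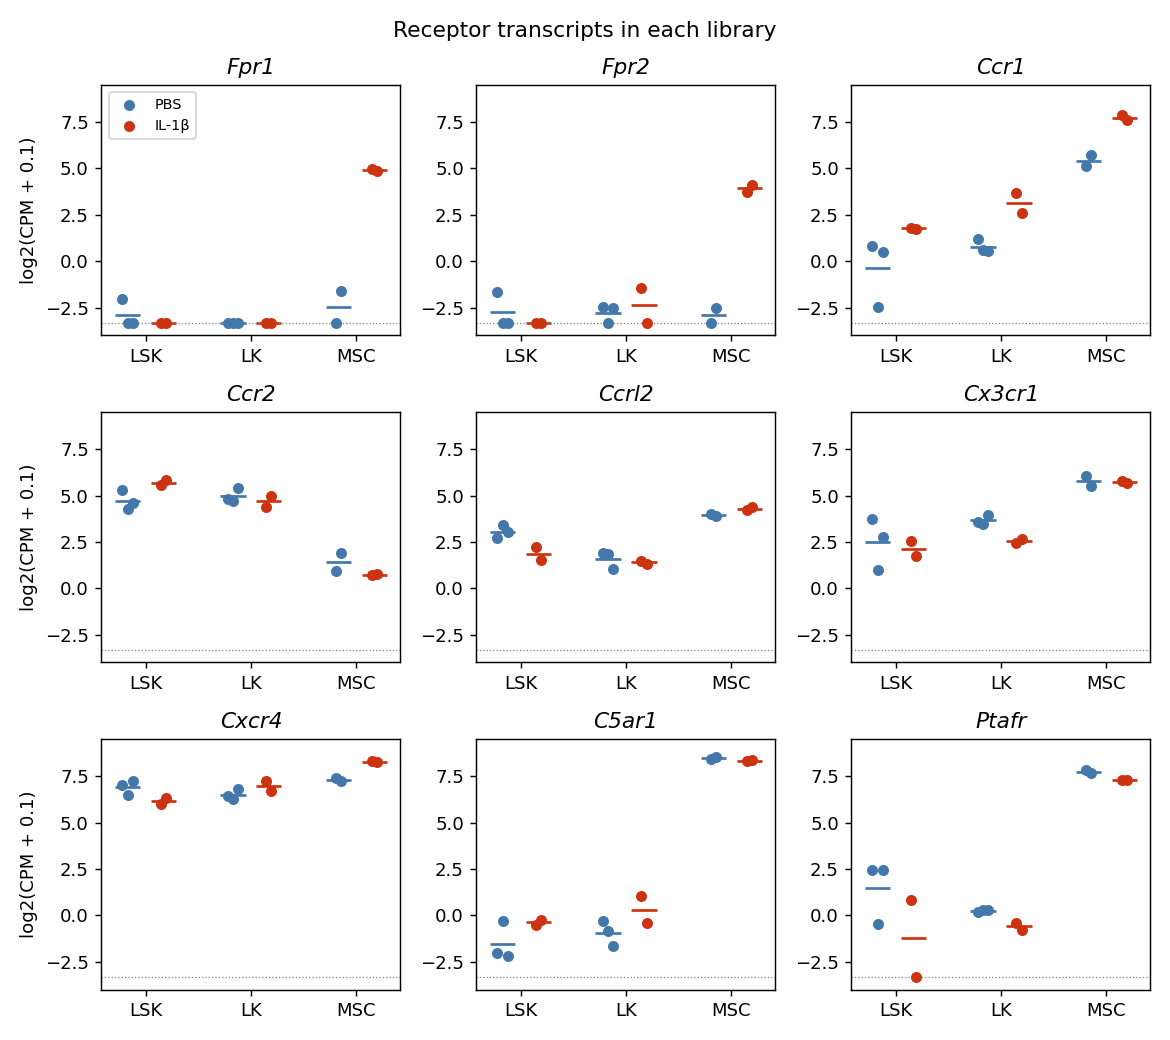
Level of each receptor in every library as log2(CPM + 0.1), with PBS in blue and IL-1β in red, 1 point per library and a line at the group mean of the plotted values. The dotted line is at 0 CPM. Fpr1 and Fpr2 leave that line clearly only in the 2 MSC libraries with IL-1β (29.4 and 31.6, and 13.3 and 17.1 CPM), and C5ar1 and Ptafr are high in all 4 MSC libraries.

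In LK progenitors, 6 of the 9 receptors had enough counts for a test, and 9.34% of the 12835 genes tested were called, 6.77% higher and 2.57% lower. Ccr1 rose and Cx3cr1 fell with IL-1β. Ccr1 had 2.15, 1.44 and 1.36 CPM with PBS and 12.6 and 5.94 CPM with IL-1β. The lower IL-1β library was above each PBS library, and the rise was 5.65-fold (log2 fold change 2.50 ± 0.42, edgeR adjusted p = 0.0101). The call rested on IL-1β replicate 1, since without it the log2 fold change was 1.83 and the adjusted p 0.221. When LSK and LK were fitted together the adjusted p of Ccr1 was 0.124. The neutrophil markers given above moved in the same libraries, with 6 of the 10 tested called higher and 0 lower. Of 6 erythroid markers tested, 4 were called lower and 0 higher. Of 3 mast cell and basophil markers tested, 2 were called higher and 0 lower. The part of these marker shifts in the rise of Ccr1 was not tested.

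Cx3cr1, a receptor of monocytes, dendritic cell precursors and macrophages, had 11.7, 10.8 and 15.5 CPM with PBS and 5.43 and 6.10 CPM with IL-1β. Both IL-1β libraries lay below all PBS libraries, and the fall was 2.20-fold (log2 fold change -1.13 ± 0.26, adjusted p = 0.0314 by edgeR). The direction held in each alternative. The adjusted p was 0.514 in the joint fit, 0.0766 without PBS replicate 1, 0.0589 without PBS replicate 2, 0.279 without IL-1β replicate 1 and 0.156 without IL-1β replicate 2. Of the 12 monocyte and macrophage markers tested in LK, 4 were called lower and 0 higher. The summed list was 361 to 568 CPM with PBS and 298 and 334 CPM with IL-1β. Marco and Mertk were at 0 with IL-1β, but had only 4 and 6 counts over the LK PBS libraries. Their PBS means, 0.0820 and 0.135 CPM, lie below the limit of 0.218 CPM for a count of 0 in LK with IL-1β. Nothing is read from their absence. Irf8, the transcription factor of monocyte and dendritic cell fate, went from 99.6 ± 18.7 CPM (SD, n = 3) to 16.7 ± 9.74 CPM (n = 2), and Csf1r, the M-CSF receptor, from 44.0 ± 12.3 to 7.92 ± 4.45 CPM. The monocyte genes Ly6c2 and F13a1 did not pass the test, with log2 fold changes of 0.34 ± 0.33 and 0.07 ± 0.25. The part of these markers in the fall of Cx3cr1 was not tested.

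Cxcr4 in LK had 85.8, 79.0 and 113 CPM with PBS and 153 and 107 CPM with IL-1β, with overlap. The log2 fold change was 0.49 ± 0.20 and not called (edgeR adjusted p = 0.180). Without PBS replicate 3 it was called, at a log2 fold change of 0.66 and an adjusted p of 0.0114. Ccr2 had 28.4, 25.9 and 42.8 CPM with PBS and 21.1 and 31.1 CPM with IL-1β (log2 fold change -0.31 ± 0.27, edgeR adjusted p = 0.515). Its groups overlapped too.

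The remaining receptors were sparse in LK. Ccrl2 had 1.93 to 3.66 CPM with PBS and 2.65 and 2.41 CPM with IL-1β (edgeR adjusted p = 0.759). Ptafr had 1.03, 1.13 and 1.14 CPM with PBS and 0.662 and 0.481 CPM with IL-1β, lower without overlap but on 5 and 3 counts in the IL-1β libraries (log2 fold change -0.92 ± 0.65, edgeR adjusted p = 0.427). For C5ar1, with 0.215 to 0.715 CPM with PBS and 1.99 and 0.642 CPM with IL-1β, the counts were too few to be tested. Of the 6 receptors tested, 1 lay higher and 2 lower with IL-1β without overlap, where 23.5% and 22.2% of all genes tested did.

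No receptor was called in LSK cells, where 0.632% of the 13132 genes tested were called by edgeR, 0.32% higher and 0.312% lower. DESeq2 also called 0 of the 9, and at an unadjusted p under 0.05 edgeR had 2 of the 6 receptors tested, Ccr2 and Cxcr4, beside 2431 of the 13132 genes. Ccr2 had 39.7, 19.2 and 24.1 CPM with PBS against 46.6 and 57.3 CPM with IL-1β, so that both IL-1β libraries were higher than all PBS libraries. Its log2 fold change was 0.91 ± 0.34 (edgeR adjusted p = 0.210) and 0.72 without LSK PBS replicate 2 (adjusted p = 0.188). Cxcr4 went the other way, with 132, 88.5 and 150 CPM with PBS against 64.2 and 79.6 CPM with IL-1β. Here both IL-1β libraries were below all PBS libraries, with a log2 fold change of -0.78 ± 0.29 (edgeR adjusted p = 0.205), or -0.95 without LSK PBS replicate 2 (adjusted p = 0.0613).

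Ccrl2 had 6.36, 10.5 and 8.13 CPM with PBS and 4.62 and 2.73 CPM with IL-1β in LSK, again without overlap (log2 fold change -1.16 ± 0.56, edgeR adjusted p = 0.3002). Without PBS replicate 2 it was -0.92 (adjusted p = 0.258). Ccr1 had 1.68, 0.0783 and 1.29 CPM with PBS, the lowest value being a single count in replicate 2, and 3.41 and 3.22 CPM with IL-1β. Its log2 fold change was 1.69 ± 1.13 (edgeR adjusted p = 0.446), and 1.18 without that replicate (adjusted p = 0.299). Groups that do not overlap are common in these libraries. Of all genes tested, 18.2% lay higher and 21.4% lower with IL-1β without overlap, beside 2 higher and 2 lower of the 6 receptors tested.

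Cx3cr1 and Ptafr overlapped between treatments in LSK. Cx3cr1 had 13.02, 1.88 and 6.61 CPM with PBS and 5.72 and 3.22 CPM with IL-1β (log2 fold change -0.66 ± 0.78, edgeR adjusted p = 0.685). Ptafr had 5.34, 0.627 and 5.32 CPM with PBS and 1.70 and 0 CPM with IL-1β (log2 fold change -1.99 ± 1.32, edgeR adjusted p = 0.440). In both cases PBS replicate 2 was the lowest PBS library, and the log2 fold changes without it were -1.08 for Cx3cr1 (adjusted p = 0.227) and -2.40 for Ptafr (adjusted p = 0.179). Without PBS replicate 1 Cx3cr1 turned to 0.11. For Ptafr the value was -1.65 without PBS replicate 1, -1.66 without PBS replicate 3 and -1.13 without IL-1β replicate 2, and without IL-1β replicate 1 the remaining IL-1β library had no Ptafr count, so that no fitted fold is given. C5ar1 had 0.146, 0.705 and 0.117 CPM with PBS and 0.608 and 0.744 CPM with IL-1β, on 2 to 9 counts per library, and was not tested. Stem and progenitor markers summed to 826 and 939 CPM with IL-1β, below the PBS range given above, and their part in the LSK receptor values was not tested.

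**Figure D4:**
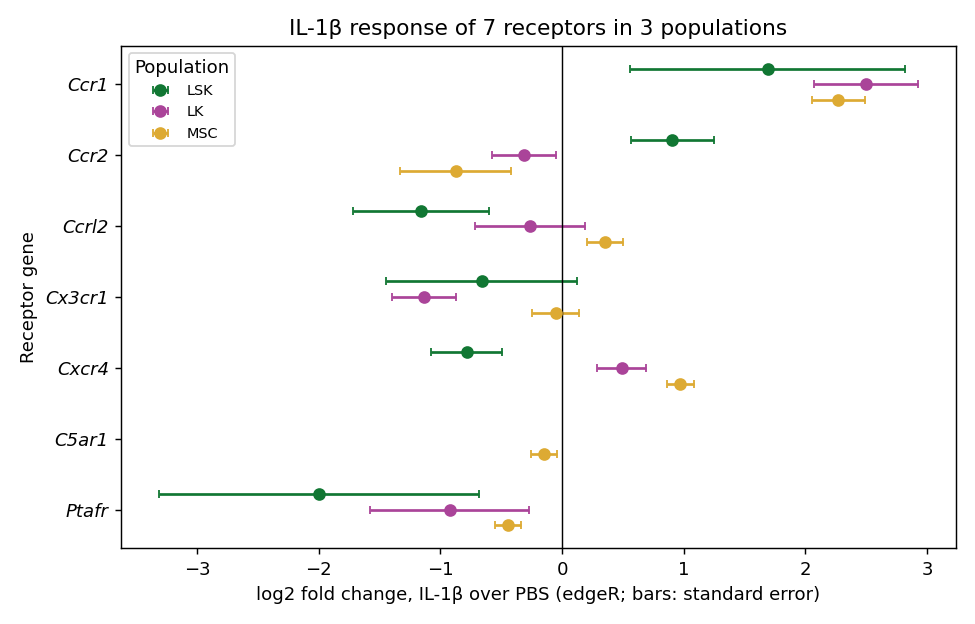
Log2 fold change of IL-1β over PBS for 7 receptors in LSK (green), LK (purple) and MSC (yellow), with the standard error from edgeR as bars. Ccr1 is above 0 in all 3 populations (1.69, 2.50 and 2.27), Ptafr is below 0 in all 3, and C5ar1 was tested in MSC only. Ccr1 in LSK and Ptafr in LSK and LK rest on few counts and were not called.

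Whether the LSK and LK responses differ was tested as an interaction over the 10 LSK and LK libraries. At an adjusted p under 0.05, 0.0289% of the 13839 genes tested were called by edgeR (0.0217% with the higher and 0.00723% with the lower response in LK), and 0 of the 9 receptors. At an unadjusted p under 0.05 edgeR had 2 of the 6 receptors tested and 1967 of all genes. Cxcr4 differed most clearly, with a response in LK above that in LSK by 1.31 ± 0.37 on the log2 scale (edgeR adjusted p = 0.186). Without LSK PBS replicate 2 this difference was called (1.51, adjusted p = 0.0412), and likewise without the filter on low counts (1.20, adjusted p = 0.0209). The response of Ccr2 was lower in LK than in LSK by 1.17 ± 0.48 on the log2 scale (log2 difference -1.17, edgeR adjusted p = 0.311). For Ccr1, Ccrl2, Cx3cr1 and Ptafr the edgeR adjusted p of the difference was between 0.551 and 0.863.

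Between the populations under PBS, 31.8% of the genes tested were called by edgeR, 12.4% higher and 19.4% lower in LK, and Ccrl2 was the only receptor among them, of 6 tested. It was 2.72-fold lower in LK, at 3.66, 3.55 and 1.93 CPM, than in LSK, at 6.36, 10.5 and 8.13 CPM (log2 difference -1.45 ± 0.41, edgeR adjusted p = 0.0185). The highest LK library was below the lowest LSK library, each scaled within its population. The call was lost without LK PBS replicate 3 (adjusted p = 0.0665) and without the filter on low counts (adjusted p = 0.0513), and it was kept without LSK PBS replicate 2 (log2 difference -1.26, adjusted p = 0.0278). Leaving out LSK PBS replicate 2 also brought calls for Cxcr4 (log2 difference -0.62, adjusted p = 0.0329) and Ptafr (-2.28, adjusted p = 0.0250), so that 3 receptors were called. With all libraries these 2 had log2 differences of -0.43 ± 0.23 and -1.78 ± 0.90 (edgeR adjusted p = 0.180 and 0.151). Cx3cr1 was called only without LSK PBS replicate 1 (log2 difference 1.66, adjusted p = 0.0360), against 0.80 ± 0.53 with all libraries (edgeR adjusted p = 0.275). Ccr1 and Ccr2 had log2 differences of 0.66 ± 0.73 and 0.21 ± 0.30 (edgeR adjusted p = 0.523 and 0.626).

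The rest of the receptor families, 34 genes, gave a wider view. This list and those of ligands and signalling genes were chosen with earlier results of these data known. Their counts and p-values are therefore not independent evidence. In LSK 11 of the 34 genes were tested, where 0.32% of all genes were called higher and 0.312% lower. Ltb4r1, the high-affinity leukotriene B4 receptor of granulocytes, was the only call. It rose from 5.89 ± 1.78 CPM (SD, n = 3) to 31.5 ± 2.84 CPM (n = 2), with a log2 fold change of 2.41 ± 0.38 (edgeR adjusted p = 0.0262). Ltb4r1 rose in LK as well, from 14.3 ± 5.08 to 55.6 ± 17.9 CPM (log2 fold change 1.97 ± 0.31, edgeR adjusted p = 0.0120). Of the 10 tested in LK, Ccr10 was also called, on 1 count over the PBS libraries against 31 over the IL-1β libraries, a ratio of 103 with a counting interval of 17.2 to 4218 (edgeR adjusted p = 0.00838). The list thus had 2 called higher and 0 lower in LK, where 6.77% and 2.57% of all genes were. In LSK the list had 0 calls without either IL-1β library in turn, and in LK it had 0 without IL-1β replicate 1, 1 without IL-1β replicate 2 or PBS replicate 2, and 4 without PBS replicate 3. The median log2 fold change over the list was 0.83 in LSK and 0.81 in LK, beside -0.06 and -0.03 over all genes tested.

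In MSC 12 of these receptors were tested, with 5 called higher and 0 lower, where 7.14% of all genes were called higher and 4.31% lower. The median log2 fold change was 0.72 beside 0.00 over all genes. The cysteinyl leukotriene receptor Cysltr1 went from 7.47 ± 3.11 to 33.5 ± 0.359 CPM (SD, n = 2 each, log2 fold change 2.24 ± 0.27, edgeR adjusted p = 0.00953). Cmklr1, the signalling chemerin receptor (log2 fold change 1.67 ± 0.36), Gpr35 (1.54 ± 0.28) and the eotaxin receptor Ccr3 (1.13 ± 0.18) were called with edgeR adjusted p-values of 0.0394, 0.0251 and 0.0194. Calls in this list were 0 without IL-1β replicate 1 or without IL-1β replicate 2, and 8 without PBS replicate 2. Between LK and LSK under PBS, 13 were tested, with 2 called higher and 2 lower in LK. Of all genes 12.4% were called higher and 19.4% lower there, so these calls are not read as a trait of the list. Cysltr2 was lower in LK (log2 difference -3.32 ± 0.43) and so was Ccr7, with 32, 57 and 11 counts in LSK PBS replicates 1, 2 and 3 and 0 in each LK PBS library, whereas the second C5a receptor C5ar2 (3.22 ± 0.55) and Ltb4r1 (1.27 ± 0.31) were higher in LK, with edgeR adjusted p-values between 0.000212 and 0.00853.

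Ligands of the 9 receptors, or the enzymes that make them, were a list of 16 genes. It too was chosen with earlier results known, so it gives no independent support for the receptor values. In MSC 15 of the 16 genes were tested. Of these, 9 rose and 1 fell, where 7.14% of all genes were called higher and 4.31% lower. The median log2 fold change was 1.15, beside 0.00 over all genes. The serum amyloid A gene Saa3, a ligand of Fpr2, rose from 1.84 ± 0.692 to 1779 ± 249 CPM (log2 fold change 10.02 ± 0.28, edgeR adjusted p = 0.00021). Camp, the precursor of another Fpr2 ligand and also a gene of the neutrophil list, had 3 counts over the PBS and 293 over the IL-1β cultures, a ratio of 45.0 with a counting interval of 15.3 to 219.5 (edgeR adjusted p = 0.00256). Of the chemokines that Ccr1 or Ccr2 bind, Ccl5 (log2 fold change 5.03 ± 0.14), Ccl12 (3.99 ± 0.41) and Ccl6 (2.95 ± 0.21) rose, with edgeR adjusted p-values from 0.00021 to 0.00578, and the other 4 genes that rose had log2 fold changes from 0.89 to 1.55. Without IL-1β replicate 1 only 2 ligand genes were called in MSC, and without IL-1β replicate 2 only 3. Annexin A1, whose gene Anxa1 encodes a formyl peptide receptor ligand, fell from 1476 ± 249 to 559 ± 1.82 CPM (log2 fold change -1.40 ± 0.15, edgeR adjusted p = 0.00595).

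The direction of Anxa1 was the other way in LK. There it rose from 52.0 ± 14.4 to 311 ± 114 CPM (log2 fold change 2.58 ± 0.30, edgeR adjusted p = 0.00779), and no test set it against MSC. Saa3 rose in LK from 0.226 ± 0.0668 to 16.96 ± 3.56 CPM (6.21 ± 0.38, edgeR adjusted p = 0.000262) and the PAF-making enzyme Lpcat2 by 1.67 ± 0.23 on the log2 scale (edgeR adjusted p = 0.00529). These were the 3 ligand genes called of 8 tested in LK, where 6.77% of all genes were called higher and 2.57% lower. In LSK 8 were tested, 0 were called by edgeR, 3 had an unadjusted p under 0.05 (beside 2431 of all 13132 genes), and other fits called up to 3. Between LK and LSK under PBS, Lpcat1, which also makes PAF, was the only call of 10 tested, higher in LK (log2 difference 1.40 ± 0.26, edgeR adjusted p = 0.00179). Of all genes 12.4% were called higher and 19.4% lower in LK.

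Signalling below the receptors was followed in 24 genes of Gi proteins, effectors, arrestins, receptor kinases and RGS proteins. In LSK 23 were tested and 0 called by edgeR, with 4 at an unadjusted p under 0.05 (beside 2431 of all 13132 genes) and up to 1 called by other fits. In LK 5 of 23 rose and 1 fell, where 6.77% of all genes were called higher and 2.57% lower. Among those that rose were the PI3Kγ adaptor Pik3r5 (log2 fold change 2.07 ± 0.21), Rac2 (1.19 ± 0.21), Gnai3 (0.81 ± 0.11) and the arrestin Arrb2 (0.67 ± 0.16), and the G protein Gna15 was lower (-0.53 ± 0.13), with edgeR adjusted p-values from 0.00175 to 0.0368. Without IL-1β replicate 1 there was no call in this list in LK. In MSC 5 of 24 rose, where 7.14% of all genes did, among them Fgr (log2 fold change 1.38 ± 0.29), Prex1 (0.93 ± 0.10), Pik3r6 (0.80 ± 0.17) and Arrb2 (0.54 ± 0.10). Rgs1 (-1.76 ± 0.17) and Rgs16 (-0.87 ± 0.17), which shorten G protein signals, fell, where 4.31% of all genes were called lower. The edgeR adjusted p-values were between 0.004995 and 0.0377, and the calls were 0 without IL-1β replicate 1 and 0 without IL-1β replicate 2. Of 23 tested between LK and LSK under PBS, 13 were lower in LK and 0 higher, where 19.4% of all genes were lower and 12.4% higher, with Gng2 (log2 difference -1.89 ± 0.22), Rgs1 (-1.83 ± 0.55), Elmo1 (-1.70 ± 0.23), Rgs2 (-1.49 ± 0.29) and Dock2 (-1.49 ± 0.24) lowest (edgeR adjusted p from 0.0001135 to 0.0234). The median over this list was -0.99, beside -0.09 over all genes tested.

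Genes whose log2 CPM followed a receptor most closely over the 14 libraries were named by Pearson's r as a description with no test, over libraries that share the same 6 groups. For Fpr1 they were Cd209f (r = 0.997), Cd209g (0.996) and Brinp3 (0.995), and for Fpr2 Slfn1 (0.986), Cd209g (0.980) and Cd209f (0.978). Fpr1 and Fpr2 had at most 3 counts in each library outside the MSC cultures with IL-1β. Their r values are therefore set by that group against a floor, and nothing further is read from them. Cept1 (0.989) and AB124611 (0.975) followed Ccr1. For Ccr2, the receptor lowest in MSC, the leading genes were Ung (0.983), Polr2m (0.980) and Cdk2ap1 (0.977). Ccrl2 was followed by Lamb2, Etv3 and Pkd2 (0.978 to 0.986), Cx3cr1 by Casp9, Tfe3 and Ctnna1 (0.976 to 0.979), and Cxcr4 by Tor1aip1, B2m and Rp2 (0.955 to 0.964). For C5ar1 these were Ftl1-ps1, Hgsnat and the lysosomal protease gene Ctsd (0.992 to 0.995), and for Ptafr Ids, Eif5a2 and Olfml3 (0.986 to 0.991). Group means of C5ar1 and Ptafr were at most 0.472 and 0.924 CPM per kb in sorted cells, against at least 156 and 53.3 in MSC. Their r values therefore largely follow MSC against sorted cells, as do those of Ccr2 in the other direction, and nothing further is read from them.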

How the data were processed

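The authors deposited raw counts of read pairs per gene for 10 LSK and LK libraries and 4 MSC libraries. Per the labels and file headers, reads were processed with fastp 0.20.0, HISAT2 2.0.1, SAMtools 1.10 and featureCounts 2.0.2 (stranded, read pairs) on GRCm38 with Ensembl release 100. The methods also name GenomicAlignments. Symbols came from GENCODE M21 (55141 of 55487 identifiers). A further MSC library that a file header names was not analysed here.

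Counts were tested within each population with edgeR 4.0.16 in R 4.3.3 (filterByExpr, TMM, robust quasi-likelihood F test). Calls needed a Benjamini-Hochberg adjusted p under 0.05 and a log2 change over 0.5 in either direction. LK against LSK and the interaction were fitted over all 10 LSK and LK libraries, the interaction without a fold threshold. The standard error is the log2 fold change divided by the square root of F. CPM are scaled within a population and CPM per kb over all 14 libraries. The limit for a count of 0 is 3 counts, and intervals are exact 95% conditional intervals of a ratio of counts, for counting error only, since PCR copies are not independent molecules. Nothing in the labels says that replicates came from separate animals or cultures, so p-values measure the spread between these libraries.

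The members and lists were chosen with earlier results of these data known. All 9 receptors are described. From each other list the called genes are named, up to 5 in each direction, and for each receptor the 3 genes with the highest Pearson correlation of log2 CPM (prior count 2) over 14 libraries. Some genes under this rule are not reported here. Marker genes named singly (Adgre1, C1qa, Cd68, Col1a1, Col3a1, Irf8, Csf1r, Ly6c2, F13a1) were picked after their values were seen. Scripts were tested on simulated data. Alternatives were DESeq2 1.42.0, DESeq2's size factors, no filter, a replicate block, a joint fit, and each replicate left out.

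Under PBS, deviations from the group mean in LSK and LK libraries of the same number had r = 0.190, 0.115 and 0.446. The best r with an LK library of another number was 0.110, 0.152 and -0.241. Replicate 2 thus followed another number better, and the label numbers are not shown to pair the libraries. The main fit of LK against LSK used no pairing, and the block kept its calls. Under IL-1β r was 0.0838, and the interaction was not taken as paired either.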

Additional observations from a re-analysis of the deposited data

Results flagged for a closer look

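In 3 receptors every LSK library with IL-1β lay on the other side of the PBS libraries than in the MSC cultures. For Ccr2 the log2 fold change was 0.91 in LSK and -0.87 in MSC, where it was -0.23 without MSC PBS replicate 3 and -1.23 without MSC PBS replicate 2. Ccrl2 had -1.16 in LSK and 0.35 in MSC. For Cxcr4 it was -0.78 in LSK and 0.97 in MSC. None of the LSK differences passed the edgeR test. The difference between the populations was not tested, since sorted Jak2V617F cells from treated mice and wild-type cultures were separate experiments.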

How the results depend on the processing

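In the sorted cells Fpr1, Fpr2 and C5ar1 had too few counts to be tested. The number of receptors called was 0 in LSK under all 10 alternatives. In LK it was 2 and became 0 in the joint fit of LSK and LK libraries, and leaving out 1 library at a time gave 0 to 3. In MSC it was 4, with a range of 2 to 5 when a library was left out (2 without either IL-1β library). The set was chosen with the MSC levels of Fpr1 and Fpr2 known. The MSC counts are therefore not comparable with those of the other populations, and nothing is read from them. For LK against LSK under PBS the number of receptors called was 1, and 0 without the filter on low counts, with a range of 0 to 3 when a library was left out. For the interaction it was 0, and 1 without the filter, with a range of 0 to 1. The counts over all genes moved with left-out libraries, from 83 to between 3 and 480 in LSK, from 1199 to between 66 and 2409 in LK, from 1515 to between 38 and 3819 in MSC, and from 4 to between 0 and 336 for the interaction. In LSK other fits called more genes, with 905 by DESeq2, 869 without the filter, 702 with the block and 1228 in the joint fit.

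The direction reversed for Cx3cr1 and Ccr2, which were not called in these comparisons, when a library was left out. On the log2 scale Cx3cr1 then ranged from -1.16 to 0.11 in LSK (0.11 without LSK PBS replicate 1), from -0.31 to 0.26 in MSC (0.26 without MSC PBS replicate 2), and from -1.30 to 0.026 in the interaction (0.0063 without LSK PBS replicate 2, 0.026 without LSK IL-1β replicate 1). Ccr2 in LK against LSK ranged from -0.039 to 0.67 (-0.00095 without LSK PBS replicate 2, -0.039 without LK PBS replicate 3). The cause was not tested.

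With the replicate number as a block the receptors called were 0 in LSK, 3 in LK, where Cxcr4 was added at a log2 fold change of 0.63 (edgeR adjusted p = 0.00245), 1 in LK against LSK and 0 in the interaction. Same-numbered PBS and IL-1β libraries showed little correlation of their deviations (r = -0.091 and 0.0218 in LK, 0.116 and -0.0327 in LSK), so these libraries share only a number and the added call in LK rests on no pairing. The block within treatment, chosen after seeing the data, gave 1 and 0. No paired analysis was possible in MSC because its treatments share only 1 replicate number. Levels per kb without TMM were lower in MSC, with Cxcr4 at 170 in place of 214 CPM per kb and C5ar1 at 144 in place of 169.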
